A study of Mus musculus with 24 samples.

Results

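A set of 10 genes was followed that respond quickly to growth factor signals or belong to the Myc family, in RNA sequencing counts from the mouse otocyst, the epithelial vesicle that forms the inner ear. They are the immediate early genes Egr1, Fos, Fosb, Jun, Junb, Ier2 and Ier3 and the Myc factors Myc, Mycn and Mycl, chosen by name. Of these 10 genes, 9 have a row among the 15736 genes of the count table, and all 9 passed the filter on low counts in every exposure. Fosb was not analysed here.

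Every embryo carried the doxycycline-dependent activator rtTA at the Rosa26 locus (Rosa26rtTA/+), which is active in most cell types. Control pools (con) carried nothing else. Experimental pools (R2b) also carried Tg(tetO-s(dn)Fgfr2b)/+, which after doxycycline makes a secreted dominant-negative FGFR2b that traps FGF ligands outside the cell. All pregnant females, those of the controls included, received doxycycline as an injection of 1.5 mg/kg and then 200 mg/kg chow. Doxycycline began at embryonic stage E9.75 for 12 hours (E9.75+12h, 3 litters), at E9.25 for 24 hours (E9.25+24h, 4 litters) or at E10.25 for 24 hours (E10.25+24h, 4 litters). Dissection was at E10.25 for the first pair of exposures and at E11.25 for the third. Within each litter the otocyst epithelia were pooled by genotype, so a litter gave 1 con and 1 R2b library. A pool is the unit of replication, and the number of embryos in it is not given in the sources used here.

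FGF receptors signal through the RAS and ERK kinase cascade, and activated ERK phosphorylates transcription factors already bound at immediate early genes, which are then transcribed without new protein synthesis. The FOS and JUN proteins pair to form AP-1, EGR1 is a zinc finger transcription factor, IER2 and IER3 are small proteins of the same rapid response, and the MYC proteins pair with MAX to drive growth and ribosome production. Immediate early genes are also switched on by tissue handling, so the spread between litters is given beside each comparison. In bulk tissue, fewer cells of a type and less RNA per cell cannot be told apart.

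The libraries held 18.7 to 28.2 M counts. All 12 otic epithelium markers were in the table, and their summed level was 2568 to 8255 counts per 1 M counts (CPM) in the libraries. At E9.75+12h it was 4434 to 4707 CPM in con and 4771 to 5800 CPM in R2b. At E9.25+24h it was 2568 to 3980 CPM and 3512 to 5420 CPM, which overlapped. At E10.25+24h the labels also overlapped, with 5382 to 8255 CPM for con and 6007 to 7654 CPM for R2b. The part of such differences in the member levels was not tested. Each CPM value is scaled here with a TMM factor (trimmed mean of M-values), computed over all 22 libraries. Markers of neighbouring cells were also read in every library, with summed CPM of 9.69 to 5050 for blood, 91.2 to 1321 for mesenchyme, 16.4 to 333 for endothelium, 4.47 to 40.4 for hindbrain and 2.67 to 21.7 for macrophages. These ranges span both genotypes and all exposures. All 12 mesenchyme and all 12 endothelium markers were in the table. The other sums are partial, with 9 of 12 blood, 4 of 12 hindbrain and 7 of 10 macrophage markers present. No mesenchyme marker was at 0 in any library, and the only endothelium marker at 0 was Emcn in R2b of litter 3 at E9.25+24h. The transgene holds Fgfr2 sequence and was also followed by reads on the immunoglobulin gene Ighg1. In the earlier pair of exposures Ighg1 reached 1025 to 3056 CPM with the transgene and 0.048 to 1.99 CPM without. At E10.25+24h, the library labelled con of litter 1 had 679 CPM of Ighg1 and the library labelled R2b of that litter 54.7 CPM, which goes against their labels. The library labelled con of litter 3 had 201 CPM. Log2 fold changes of the members in that exposure are therefore also given without these litters. The same holds for counts over the lists of Myc targets, Myc partners and antagonists, and ERK readout genes. Counts of the other gene lists are given for the earlier exposures alone.

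Mycn showed the largest called difference between the genotypes among the members. This gene encodes the Myc factor of neural and epithelial progenitors and lies at chr12:12936093-12941914 on the minus strand of GRCm38 (ENSMUSG00000037169). At E9.75+12h its level was 107, 119.6 and 113 CPM in con of litters 1 to 3 and 44.7, 39.6 and 61.3 CPM with the transgene in the same litters. Each R2b pool was below each con pool. Mycn fell by 1.20 on the log2 scale (SE 0.15, 95% interval -1.52 to -0.88, FDR 6.71e-04, edgeR quasi-likelihood test), to 0.435 of the control level. The FDR is the Benjamini-Hochberg adjusted p over all genes tested, and a gene is called when it is under 0.05.

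At E9.25+24h Mycn stood at 111, 106, 138.5 and 107 CPM in con of litters 1 to 4 and at 56.3, 52.4, 62.1 and 68.5 CPM in R2b. The groups again did not overlap, and R2b was lower in 4 of 4 litters. The gene fell by 0.95 on the log2 scale (SE 0.11, 95% interval -1.19 to -0.70, edgeR FDR 0.00152). Mycn kept its call in all 18 alternative analyses at E9.75+12h and in all 22 at E9.25+24h. The 2 effects differed by 0.27 on the log2 scale (95% interval -0.25 to 0.80), a difference that did not pass the test (edgeR FDR 0.691).

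At E10.25+24h the con labels of litters 1 to 4 read 62.2, 115, 98.5 and 110.5 CPM of Mycn. The R2b labels read 88.0, 66.6, 84.2 and 65.5 CPM. The groups overlapped, because litter 1 went the other way: its library labelled con was the lowest of the 8 and its library labelled R2b the highest of the 4 with that label. The log2 fold change was -0.33 (SE 0.18, 95% interval -0.75 to 0.08, edgeR FDR 1). Without litter 1 it was -0.56 (FDR 0.103), and with the litter as a block and litter 1 left out it was -0.57 (FDR 0.0433). That last analysis called 4.04% of all genes. Without litters 1 and 3, which was chosen after seeing the data, the log2 fold change was -0.75 (FDR 0.108). The effect at E10.25+24h minus that at E9.25+24h was 0.61 (unadjusted p 0.0162 and FDR 0.46 in edgeR), which did not pass.

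Mycn levels were set beside those of 6 genes that report ERK activity, the transcription factors Etv4 and Etv5 and the feedback inhibitors Spry1, Spry2, Spry4 and Dusp6. At E10.25+24h the summed level of these 6 was 85.1, 374, 339 and 347 CPM for the con labels of litters 1 to 4. It was 327, 114, 222 and 127 CPM for the R2b labels. Ranking the 8 libraries by Mycn and by this sum gave the same place to 6 of them, and the other two, R2b of litters 2 and 4, changed places with each other. The library labelled con of litter 1 had the lowest value of both. In the exposures that ended at E10.25, the con pools lay at 286 to 326 CPM of the ERK readout sum and the R2b pools at 53.8 to 117 CPM.

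**Figure D1:**
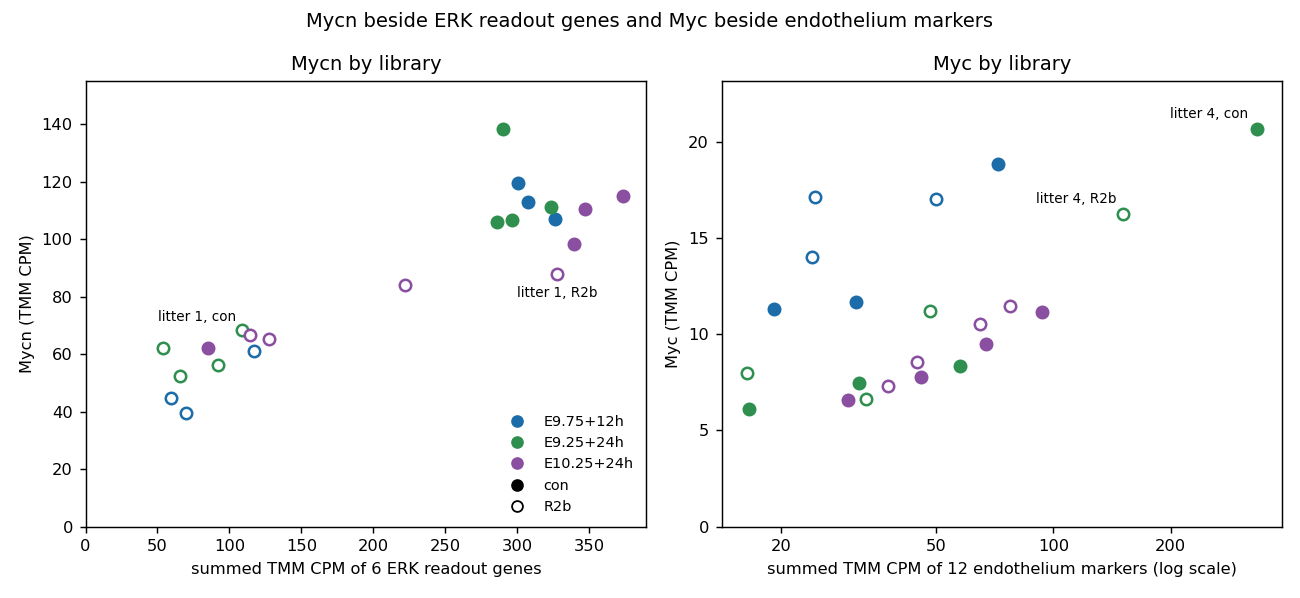
Left, Mycn in TMM CPM against the summed CPM of 6 ERK readout genes in each of 22 libraries. Right, Myc against the summed CPM of 12 endothelium markers on a log scale. Colours give the exposure, filled points con and open points R2b. The library labelled con of litter 1 at E10.25+24h (62.2 CPM of Mycn) sits among the R2b libraries, and litter 4 at E9.25+24h lies at the right end of the Myc panel.

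The sequences just upstream of Mycn, Jun and Junb are shown because Mycn and Jun were the members called, and Junb is the JUN gene closest to the threshold (FDR 0.0546 at E9.75+12h). They come from RefSeq on GRCm38.p6, where 7 of the 10 genes matched a promoter entry. Each is written from 5′ to 3′ on the gene's strand and ends at the start of the RefSeq transcript or, for Mycn, at the end of a longer gene model, with 78 bases next to the start left out. Capitals mark matches on either strand to the motifs searched.

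Mycn, chr12:12941915-12942086, minus strand: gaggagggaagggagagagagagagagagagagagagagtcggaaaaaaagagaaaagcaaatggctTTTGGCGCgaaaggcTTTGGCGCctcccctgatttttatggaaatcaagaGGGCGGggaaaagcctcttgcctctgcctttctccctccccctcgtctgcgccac

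Jun, chr4:95052223-95052472, minus strand: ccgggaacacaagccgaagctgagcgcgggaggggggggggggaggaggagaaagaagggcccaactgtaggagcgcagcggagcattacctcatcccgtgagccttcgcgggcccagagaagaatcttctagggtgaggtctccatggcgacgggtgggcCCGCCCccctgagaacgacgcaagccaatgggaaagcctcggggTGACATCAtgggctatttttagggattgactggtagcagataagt

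Junb, chr8:84978749-84978998, minus strand: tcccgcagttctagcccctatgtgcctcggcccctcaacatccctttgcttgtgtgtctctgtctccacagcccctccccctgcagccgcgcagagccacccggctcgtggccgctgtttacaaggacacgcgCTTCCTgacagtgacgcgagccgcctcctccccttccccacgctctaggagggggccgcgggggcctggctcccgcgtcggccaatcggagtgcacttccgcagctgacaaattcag

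The Mycn window holds a pair of E2F motifs, TTTGGCGC, at 183 to 176 and at 168 to 161 bases before the start, and a GC box, GGGCGG, at 133 to 128. The 8-letter E2F motif occurs in 0.417% of 32851 promoter entries and the GC box in 32.7%. The Jun window holds a GC box on the other strand at 89 to 84 bases before the start. It also holds the ATF motif TGACATCA at 45 to 38, which 2.93% of promoters share. The Junb window holds the PEA3 motif AGGAAG, read as CTTCCT, at 117 to 112, a motif that 29.5% of promoters hold. The ETS motif CCGGAAG (6.91% of promoters), the E-box CACGTG (6.02%), the CArG box (1.47%), the AP-1 motif TGANTCA (6.75%), the CRE motif TGACGT (6.47%) and the TATA box TATAAA (12.4%) were also searched and have no match in these 3 windows. A match describes letters and not a bound site.

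Myc and Mycl, the other factors of the family, did not pass the test in any exposure. Mycl (chr4:122995652-123002485, plus strand) measured 87.2, 87.0 and 89.8 CPM in the con pools of E9.75+12h and 93.8, 86.5 and 93.3 CPM in their R2b partners. The con pools of E9.25+24h held 87.5, 86.2, 81.5 and 75.9 CPM and the R2b pools 88.0, 87.6, 78.5 and 75.0 CPM, with both pools of a litter at nearly one level. At E10.25+24h it ranged from 94.9 to 115 CPM over the 8 libraries. Its log2 fold changes were 0.07 (95% interval -0.12 to 0.27), -0.0033 (-0.17 to 0.16) and -0.04 (-0.18 to 0.09), so a change of the size seen for Mycn lies outside all 3 intervals.

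Myc (chr15:61985391-61990374, plus strand) measured 11.7, 11.3 and 18.8 CPM in the con pools of E9.75+12h and 14.0, 17.0 and 17.1 CPM in their R2b partners. The con pools of E9.25+24h held 8.33, 7.45, 6.12 and 20.7 CPM and the R2b pools 11.2, 6.65, 7.96 and 16.2 CPM. Litter 4 was high in both genotypes, and the groups overlapped throughout. At E10.25+24h the con labels read 7.76, 9.51, 11.2 and 6.58 CPM and the R2b labels 10.5, 11.5, 8.57 and 7.31 CPM. The log2 fold changes were 0.23 (95% interval -0.21 to 0.67), -0.01 (-0.94 to 0.92) and 0.12 (-0.32 to 0.56), with an edgeR FDR of 0.448 or more. At E9.25+24h the direction of this small value turned without litter 4, to 0.24 (FDR 0.475).

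In 5 of the 6 groups Myc varied between litters more than the median gene of its level. The same held for Ier2 and Mycn in 5 groups and for Egr1 in 6. It held for Fos, Jun and Junb in 3 groups, for Mycl in 2 and for Ier3 in 1. For Myc the exception was R2b of E9.75+12h, with an SD of log2 CPM of 0.163 against a median of 0.178. The widest spread of Myc was in con of E9.25+24h. Its SD there was 0.77, against a median of 0.198 for 1338 genes of similar level, and the highest pool was 3.38 times the lowest. In that group litter 4 also had the highest sums of endothelium markers (57.7, 31.8, 16.6 and 333 CPM in litters 1 to 4) and mesenchyme markers (362, 213, 91.2 and 1321 CPM). The R2b pools gave 48.2, 33.1, 16.4 and 150.4 CPM for endothelium and 450.5, 247, 104 and 1224 CPM for mesenchyme. Blood, hindbrain and macrophage markers were highest in litter 4 too, in both genotypes. Ordering the pools of a group by Myc and by the endothelium sum gave the same order in 4 of the 6 groups, and for each other member in 0 or 1. Hindbrain markers, of which only 4 of 12 were in the table, matched Myc equally often, in 4 of 6 groups. Macrophage markers did so in 3 and mesenchyme and blood markers in 2. This comparison was chosen after the values were seen, and the part of these cells in the Myc levels was not tested. Only litter 3 at E9.25+24h had 10 of 12 endothelium markers under 1 CPM in both pools, where Myc was 6.12 CPM without the transgene and 7.96 CPM with it.

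**Figure D2:**
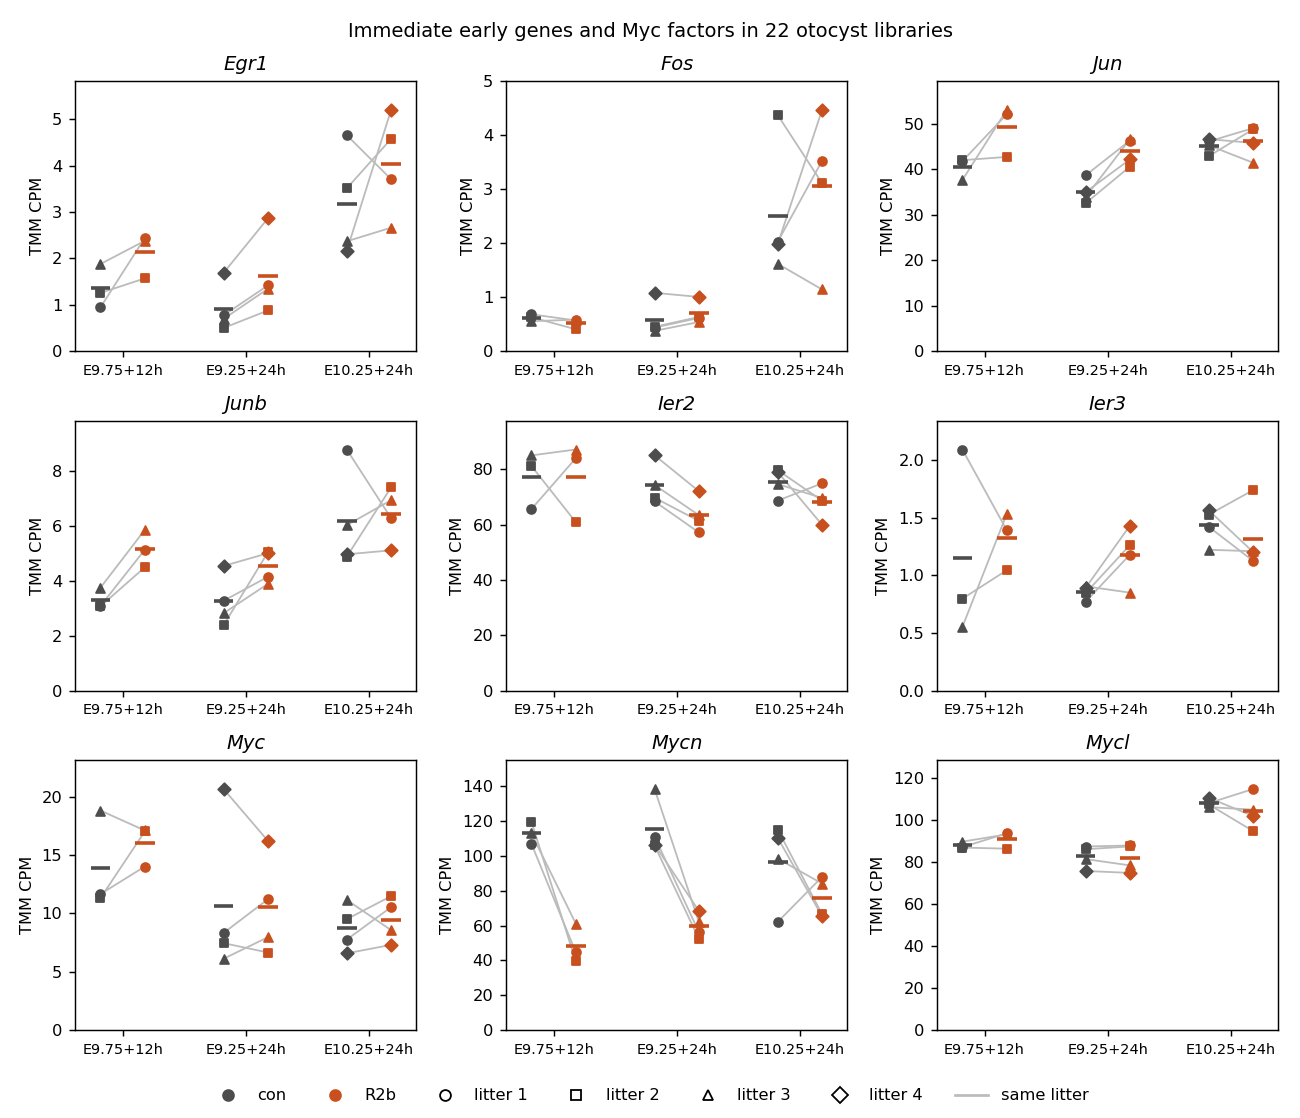
TMM CPM of the 9 measured genes in 22 libraries, by exposure and genotype. Symbols give the litter, grey lines join the 2 pools of a litter and short bars are group means. Mycn separates con from R2b in the first 2 exposures, and Jun and Junb lie higher in R2b there. Within each genotype of E9.25+24h, litter 4 is the highest for Egr1, Fos and Myc.

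Jun encodes a core AP-1 subunit and lies at chr4:95049034-95052222 on the minus strand (ENSMUSG00000052684). In the litters of E9.25+24h it was 38.7, 32.5, 33.8 and 35.0 CPM in con and 46.3, 40.6, 46.6 and 42.2 CPM in R2b. Every R2b pool was above every con pool. Jun rose by 0.33 on the log2 scale (SE 0.07, 95% interval 0.17 to 0.50, edgeR FDR 0.0205), a 1.26-fold difference. With no block for the litter, the call was lost when litter 1 (FDR 0.0774), 2 (0.0809) or 3 (0.089) was left out. It was also lost without the R2b pool of litter 1 (0.0698) or the con pool of litter 3 (0.0502). Without litter 4 Jun remained called (FDR 0.0412). With the litter as a block Jun was called with all litters, and also without litter 1, 2, 3 or 4. In these blocked fits 4450 to 6161 of all genes were called.

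At E9.75+12h Jun was 41.8, 42.0 and 37.6 CPM in con and 52.1, 42.7 and 53.1 CPM in R2b. The pools did not overlap, although litter 2 showed almost no difference. The log2 fold change was 0.31 (SE 0.12, edgeR FDR 0.0889), short of the threshold. It passed without litter 2 (FDR 0.0229), without that litter's R2b pool (0.0147) and with all libraries in 1 fit (0.0241). At E10.25+24h Jun lay between 41.5 and 49.1 CPM in all 8 libraries, with a log2 fold change of 0.04 (95% interval -0.11 to 0.19, FDR 1). The effect at E10.25+24h was 0.30 lower on the log2 scale than at E9.25+24h (95% interval -0.53 to -0.06; unadjusted p 0.0151 and FDR 0.443 in edgeR), which did not pass. The antisense gene Junos overlaps Jun on the plus strand. Its con pools of E9.75+12h held 0.738 CPM ± 0.396 and its R2b pools 0.817 CPM ± 0.164 (SD, n = 3), far below Jun.

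Junb encodes another AP-1 subunit (chr8:84974484-84978718, minus strand). At E9.75+12h the con pools held 3.09, 3.07 and 3.75 CPM and the R2b pools 5.14, 4.50 and 5.86 CPM, with no overlap. The log2 fold change was 0.67 (SE 0.22, 95% interval 0.18 to 1.15, edgeR FDR 0.0546), and it passed without R2b of litter 2 (FDR 0.036). The con pools of E9.25+24h held 3.27, 2.39, 2.82 and 4.55 CPM and the R2b pools 4.15, 5.05, 3.89 and 5.01 CPM, higher in R2b of 4 of 4 litters but overlapping between groups. Its log2 fold change there was 0.48 (FDR 0.152), and with the litter as a block it was 0.50 (FDR 0.0405). It also passed without con of litter 4 (FDR 0.0444). At E10.25+24h Junb ranged from 4.88 to 8.79 CPM, and its log2 fold change was 0.07 (FDR 1). The gene model of Junb overlaps that of Prdx2, an abundant gene with 388 CPM ± 32.2 in con of E9.75+12h and 366 CPM ± 27.7 in R2b (SD, n = 3). Whether counting used strand is not given in the sources used here, so for Jun and Junb reads of the overlapping gene cannot be told apart.

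Fos encodes the AP-1 partner of the JUN proteins and lies at chr12:85473890-85477273 on the plus strand. It had only 7 to 104 counts in a library. The con pools of E9.75+12h held 0.680, 0.626 and 0.552 CPM and the R2b pools 0.566, 0.402 and 0.581 CPM. The con pools of E9.25+24h held 0.433, 0.447, 0.373 and 1.08 CPM and the R2b pools 0.613, 0.631, 0.537 and 1.002 CPM, with litter 4 highest in both genotypes. In the latest exposure the con labels read 2.03, 4.37, 1.62 and 1.98 CPM and the R2b labels 3.53, 3.11, 1.14 and 4.47 CPM. The groups overlapped in every exposure. The log2 fold changes were -0.25, 0.25 and 0.31 with SEs of 0.42, 0.39 and 0.44, and none passed (FDR 0.704 or more).

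Egr1 (ENSMUSG00000038418) had 10 to 121 counts in a library. Its con pools of E9.75+12h held 0.941, 1.25 and 1.88 CPM and its R2b pools 2.44, 1.57 and 2.38 CPM, higher in R2b of 3 of 3 litters. Its con pools of E9.25+24h held 0.770, 0.497, 0.692 and 1.69 CPM and its R2b pools 1.42, 0.874, 1.34 and 2.86 CPM, and each R2b pool was above the con pool of its own litter. Litter 4 was again the highest in both genotypes. The log2 fold changes were 0.67 (SE 0.35, edgeR FDR 0.2) and 0.83 (SE 0.46, FDR 0.245), which did not pass. With the litter as a block the second was 0.84 (FDR 0.0094). In the latest exposure the con labels read 4.66, 3.51, 2.37 and 2.16 CPM of Egr1 and the R2b labels 3.71, 4.58, 2.66 and 5.20 CPM. Its log2 fold change was 0.35 (SE 0.30, FDR 1), and without litter 1 it was 0.65 (FDR 0.364).

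Ier2 (chr8:84661331-84662852, minus strand) was among the strongest members. At E9.25+24h it was 68.4, 69.7, 74.3 and 85.1 CPM in con and 57.2, 61.4, 63.4 and 72.1 CPM in R2b. R2b was lower in 4 of 4 litters by a like amount, while litter 4 was the highest in both genotypes, so the groups overlapped. The log2 fold change was -0.22 (SE 0.09, edgeR FDR 0.111), and with the litter as a block it was also -0.22 (FDR 0.00102). Without R2b of litter 4 it was -0.29 (FDR 0.0479). At E9.75+12h Ier2 was 65.6, 81.2 and 85.0 CPM in con and 84.0, 60.9 and 87.2 CPM in R2b, a log2 fold change of 0.03 (FDR 0.921). At E10.25+24h it ranged from 60.0 to 79.7 CPM, with a log2 fold change of -0.14 (FDR 1).

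Ier3 (chr17:35821684-35822923, plus strand) had 10 to 40 counts in a library and stood at 0.552 to 2.09 CPM. At E9.75+12h its con pools were 2.09, 0.797 and 0.552 CPM, 3.79 times apart. At E9.25+24h it was 0.770, 0.845, 0.905 and 0.890 CPM in con and 1.18, 1.26, 0.850 and 1.43 CPM in R2b, higher in R2b of 3 of 4 litters. Its log2 fold change there was 0.47 (SE 0.22, edgeR FDR 0.174), and the values in the other exposures were 0.21 and -0.11 (FDR 0.784 and 1).

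In all, 1 of the 9 members was called at E9.75+12h, where 20% of 14882 genes were (9.78% lower). At E9.25+24h 2 of 9 were called, against 15.6% of 14979 genes (9.09% higher and 6.5% lower), so the count of members was near that of all genes. With the litter as a block at E9.25+24h, 5 of 9 members were called (Mycn lower, Ier2 lower, and Jun, Junb and Egr1 higher), and so were 40.6% of all genes. At E10.25+24h edgeR called 0 members and 0% of 15203 genes, with 0 members and 175 genes at an unadjusted p under 0.05, and DESeq2 also called 0. In edgeR, 0% of 15688 genes passed the test of the effect at E9.25+24h minus that at E9.75+12h, and 0% that of E10.25+24h minus E9.25+24h. There 1908 and 1344 genes had an unadjusted p under 0.05, and DESeq2 called 92 and 74, none of them members.

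Leaving out the litters with doubtful labels at E10.25+24h called no member without the block. Without litter 1 the log2 fold changes of Jun and Junb were 0.03 and 0.31, and without litters 1 and 3 they were 0.10 and 0.36. Fos was 0.16 and 0.29 in these settings, and Egr1 was 0.65 and 0.81. Ier2 was -0.22 (edgeR FDR 0.207) and -0.28 (FDR 0.373), and Ier3 was -0.04 and -0.05. Of the Myc factors other than Mycn, Myc was 0.02 and 0.24, and Mycl was -0.08 and -0.12. Every one of these values had the sign of the value with all litters, and the FDR was 0.207 or more for each.

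**Figure D3:**
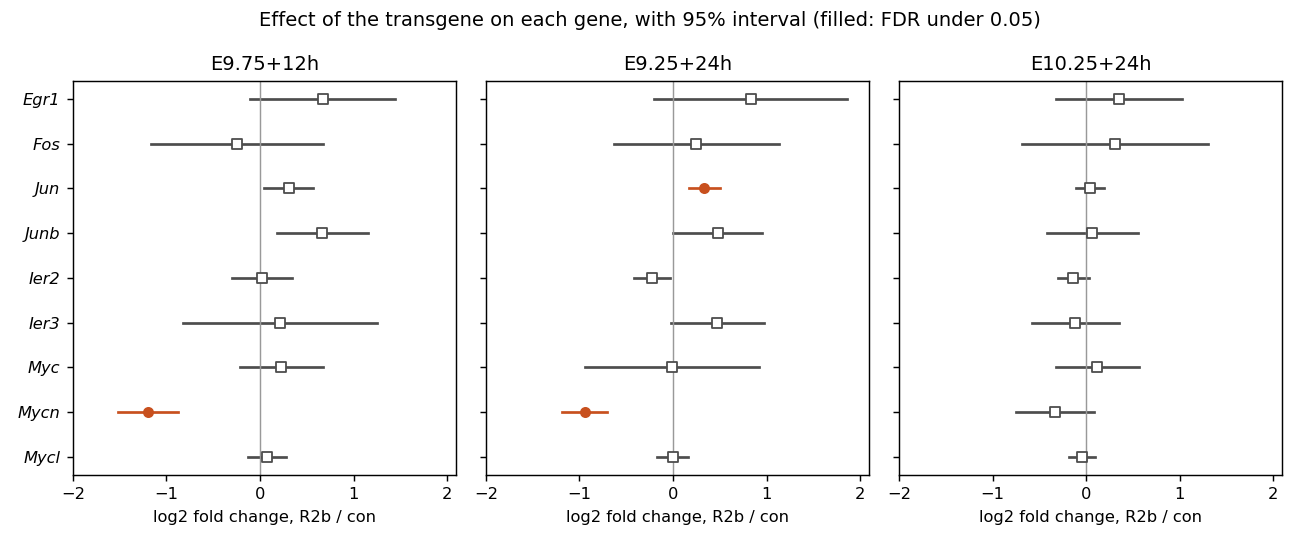
Log2 fold change of R2b over con for each gene in the 3 exposures, with 95% intervals from edgeR. Filled circles passed an FDR of 0.05 and open squares did not. Mycn lies left of 0 in the first 2 exposures (-1.20 and -0.95) and Jun right of 0 at E9.25+24h (0.33), while all intervals at E10.25+24h include 0.

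Levels per kilobase of exon were compared between genes within con at E9.75+12h. Ier2 was highest (50.8 CPM per kb ± 6.75, SD, n = 3), followed by Mycn (34.4 ± 1.90), Mycl (21.8 ± 0.391), Jun (12.7 ± 0.772) and Myc (5.13 ± 1.56). Junb (1.44 ± 0.169), Ier3 (1.01 ± 0.731), Egr1 (0.303 ± 0.106) and Fos (0.263 ± 0.0273) came last. The ranges of neighbours in this order did not overlap from Ier2 to Junb, while Junb and Ier3, and Egr1 and Fos, overlapped. In R2b Mycn came after Mycl (22.6 ± 1.01) and Jun (15.5 ± 1.79), at 14.7 CPM per kb ± 3.43. The ranges of Mycn (12.0 to 18.6) and Jun (13.4 to 16.6) overlapped there. In R2b at E9.25+24h Mycl (20.4 ± 1.62, n = 4) and Mycn (18.2 ± 2.13) overlapped, and Jun (13.8 ± 0.947) lay below both. So the highest mean of the 3 Myc genes was that of Mycn in con of these exposures and that of Mycl in R2b.

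The levels of Fos, Egr1 and Junb were also set beside each other across exposures, where stage and sequencing request cannot be told apart because every exposure had a request of its own. Fos was 1.14 to 4.47 CPM at E10.25+24h and 0.373 to 1.08 CPM in the other exposures, without overlap. Egr1 at E10.25+24h began at 2.16 CPM, and of the other 14 libraries 3 R2b pools (2.44, 2.38 and 2.86 CPM) lay above that value. Junb was 4.88 to 8.79 CPM at E10.25+24h and 2.39 to 5.86 CPM in the other exposures, which overlapped.

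Members rose and fell together across litters only in part. After subtracting group means of log2 CPM, Pearson r over the 22 libraries was 0.667 for Egr1 with Myc, 0.637 for Egr1 with Fos, 0.541 for Egr1 with Junb and 0.516 for Junb with Myc. Among the AP-1 genes it was 0.21 for Fos with Jun, 0.0591 for Fos with Junb and 0.119 for Jun with Junb. Ier2 went with Mycn (0.599) and not with Ier3 (-0.12). These are descriptions: the 2 pools of a litter share dissection, and the libraries differ in the cells they hold. Group means followed the labels, and the litters with doubtful labels at E10.25+24h were kept. The largest deviation of Mycn from its group mean, -0.596, was in the library labelled con of litter 1 of that exposure. The part of the transgene in these r values, that of Ier2 with Mycn included, was not tested.

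The 12680 other genes with a mean log2 CPM of at least 1 were ranked by the same measure. This ranking also kept the litters with doubtful labels at E10.25+24h. The part of the transgene in it, for Mycn above all, was not tested. The mean profile of the 6 measured immediate early genes was most like those of Nckap5l (r = 0.806), Dock6 (0.786) and Iffo2 (0.784), followed by Maneal, Thsd1, Pald1, Fbxl16, Btbd17, Lats2 and Dok4 (0.735 to 0.774). Myc was most like Ets1 (0.979), an ETS transcription factor strong in endothelium and lymphoid cells, Plxnd1 (0.97), a semaphorin receptor of vessels, Cnn2 (0.956), Tns2 (0.952) and Snai1 (0.946), a transcription factor of mesenchymal cells. Mycn was most like Cdc20 (0.935) and Kif22 (0.906), which act in mitosis, the centromere histone Cenpa (0.927), Tfap4 (0.916) and Wdr5 (0.906). Mycl was most like Pthlh (0.917), Itga3 (0.889), Traf3ip2, Rflnb and 2610035D17Rik (0.85 to 0.851).

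The 24 genes listed as targets of the Myc proteins in growing cells are mostly ribosome assembly factors. At E9.75+12h, 17 of 24 fell and 0 rose, where 9.78% of all genes were called lower, with a median log2 fold change of -0.52 against 0.01 for all genes tested. The nucleolar GTPase Gnl3 fell from 87.6 CPM ± 4.07 to 44.7 CPM ± 6.93 (SD, n = 3), a log2 fold change of -0.95 (edgeR FDR 9.02e-04). The snoRNP protein Nop58 (-0.86, FDR 0.0012), Pa2g4 (-0.63, FDR 0.00159) and the pre-rRNA processing factor Wdr43 (-0.67, FDR 0.002) fell as well. The count was 7 of 24 without litter 1, 4 without it and with the litter as a block, 11 without its R2b pool alone, and 15 without litter 2 or 3. Among all genes 2973 were called with all pools, 434 without litter 1 and 267 without it and with the block. Without R2b of litter 1 there were 1255, and without litter 2 or 3 there were 4065 and 1769.

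At E9.25+24h 6 of the 24 Myc targets fell, 18 did not pass and 0 rose, where 6.5% of all genes were called lower, with a median of -0.26 against -0.01 for all genes. Gnl3 fell from 131 CPM ± 18.9 to 92.9 CPM ± 10.1 (SD, n = 4), a log2 fold change of -0.49 (edgeR FDR 0.0201). The cell cycle phosphatase Cdc25a (-0.25, FDR 0.0294), Wdr43 (-0.33, FDR 0.0387) and the helicase Ddx18 (-0.26, FDR 0.0404) also fell. All 6 were among the 17 of the shorter exposure. This count depended on the analysis: the litter block gave 23 and DESeq2 16. With no block, leaving out litter 1, 2 or 3 or the R2b pool of litter 1 or 2 gave 0, and it was 6 without litter 4. With the block, 20, 22, 20 and 22 of the 24 fell without litter 1, 2, 3 or 4. In those blocked fits 4715, 4450, 4602 and 6161 of all genes were called. The number of all genes called moved as well, from 2335 in the main fit to 6086 with the block and 3245 with DESeq2. With no block it was 322, 460 and 1117 without litter 1, 2 or 3, and 816 and 934 without R2b of litter 1 or 2. Single pools mattered for the Myc targets as well, with 1 left without the con pool of litter 3 or 4, 3 without con of litter 1 or R2b of litter 3, and 11 without R2b of litter 4. In these settings 1394, 1952, 1609, 1804 and 2289 of all genes were called. At E10.25+24h 0 of 24 passed in edgeR or DESeq2, 0 had an unadjusted p under 0.05, and the median was -0.09. Without litter 1, and without litters 1 and 3, 0 of 24 passed as well. With the block and without litter 1, 2 fell, where 4.04% of all genes were called.

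Among 11 partners and antagonists of Myc, 2 rose and 0 fell at E9.75+12h, a share near the 20% of all genes called, and the median log2 fold change was 0.08. Mxd4, which competes with the Myc proteins for MAX, rose from 105 CPM ± 10.9 to 180.5 CPM ± 14.3 (SD, n = 3), a log2 fold change of 0.80 (edgeR FDR 9.31e-04). Mnt, another MAX-binding repressor, rose by 0.51 on the log2 scale (FDR 0.0404), but lost its call in 10 of 18 alternatives, among them those without litter 1 or 3 or without any single pool other than R2b of litter 2. At E9.25+24h only Mxd4 passed in that list, at 0.54 (FDR 0.0257). With the litter as a block 2 rose and 4 fell, beside 40.6% of all genes called. With no block Mxd4 lost its call without litter 1, 2 or 3 or the R2b pool of any of these. Its call was also lost without con of litter 3 (FDR 0.0515 to 0.112 in these fits). No gene of the list passed at E10.25+24h in edgeR or DESeq2, and 0 had an unadjusted p under 0.05. Without litter 1, and without litters 1 and 3, edgeR again called 0 of 11. With the block and without litter 1, 1 rose, where 4.04% of all genes were called.

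**Figure D4:**
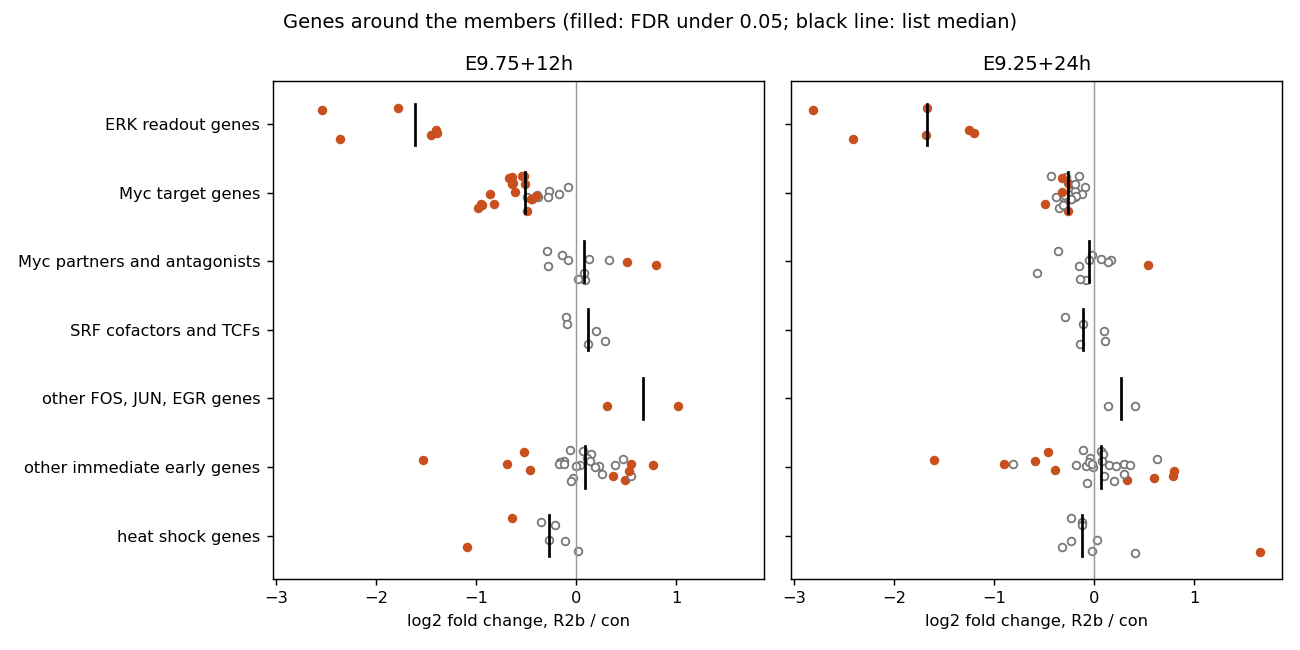
Log2 fold change of R2b over con for single genes of 7 lists in the exposures that ended at E10.25. Filled points passed an FDR of 0.05 in edgeR, open points did not, and black lines are list medians. The 6 ERK readout genes and most Myc targets lie left of 0 at E9.75+12h, and other immediate early genes lie on both sides.

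Of the other FOS, JUN and EGR genes, 2 of 6 have a row in the table, Fosl2 and Jund. At E9.75+12h both AP-1 subunits rose, where 1518 of 14882 genes did. Fosl2 rose from 8.23 CPM ± 0.920 to 16.5 CPM ± 3.61 (SD, n = 3, log2 fold change 1.02, edgeR FDR 0.00432) and Jund by 0.31 on the log2 scale (FDR 0.0331). Without litter 1 neither passed (FDR 0.0811 and 0.258), and Jund lost its call in 11 of 18 alternatives, with any 1 litter left out among them. At E9.25+24h neither passed in edgeR or DESeq2, and 0 had an unadjusted p under 0.05. With the litter as a block 1 rose, beside 40.6% of all genes called.

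Other immediate early genes moved in both directions. At E9.75+12h, 5 of 28 tested genes rose and 4 fell, and at E9.25+24h 4 of 29 rose and 5 fell, with 6 called the same way in both. Among all genes 20% and 15.6% were called, also in both directions. The median log2 fold changes were 0.09 and 0.07. Maff, a small MAF transcription factor, fell from 4.31 CPM ± 0.528 to 1.47 CPM ± 0.525 (SD, n = 3) at E9.75+12h, by 1.54 on the log2 scale (edgeR FDR 0.00617). It fell by 1.60 at E9.25+24h (FDR 0.00207). Phlda1 fell by 0.69 and by 0.90 (FDR 0.00424 and 0.00494), and the pseudokinase Trib1 by 0.52 and by 0.46 (FDR 0.0059 and 0.00332). Ppp1r15a, a phosphatase subunit of the stress response, rose by 0.53 and by 0.79 on the log2 scale (FDR 0.0085 and 0.00413). At E9.75+12h no gene of the list was called without litter 1, and at E9.25+24h 1 rose and 3 fell without it. Among all genes 434 and 322 were called in these settings. At E9.75+12h 1 to 3 of the list rose without litter 3, con of any litter or R2b of litter 1 or 3, where 1255 to 2372 of all genes were called. Ppp1r15a lost its call there without litter 3 as well (FDR 0.102). At E9.25+24h 1 rose and 3 fell also without litter 2 or 3, where 460 and 1117 of all genes were called. There 1 or 2 rose when any pool other than con of litter 4 was left out, with 816 to 2289 of all genes called. With the litter as a block 2 rose and 3 fell at E9.75+12h, and 9 rose and 6 fell at E9.25+24h. In that setting 1775 and 6086 of all genes were called.

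None of the 5 serum response factor cofactors and ternary complex factors, which bind many immediate early promoters, was called in edgeR or DESeq2 at either of these exposures, and 1 had an unadjusted p under 0.05 in each. With the litter as a block 2 fell at E9.25+24h, and without R2b of litter 2 at E9.75+12h 2 rose. In these settings 6086 and 4583 of all genes were called. Heat shock genes served as another sign of handling stress. At E9.75+12h 0 of 7 tested rose and 2 fell, the chaperones Hspe1 (-1.09, edgeR FDR 0.00473) and Hsp90aa1 (-0.64, FDR 0.00432), beside 20% of all genes called in either direction. At E9.25+24h 1 of 9 rose, beside 9.09% of all genes called higher. That gene was Hspb1, which rose from 0.294 CPM ± 0.0662 to 0.942 CPM ± 0.279 (SD, n = 4, log2 fold change 1.66, FDR 0.0122). Its con pools lay near the floor, so it may have passed the filter on low counts through the R2b pools alone. With a minimum mean CPM of 1 Hspb1 was not tested, and 0 of 7 tested heat shock genes rose. Hspe1 and Hsp90aa1 lost their calls without litter 1, and Hspb1 without litter 1 or 2. Without litter 2 or its R2b pool 4 fell at E9.75+12h, where 4065 and 4583 of all genes were called. With the litter as a block 5 fell at E9.25+24h, where 6086 of all genes were called. The part of handling in the levels of the immediate early genes was not tested.

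All 6 ERK readout genes fell in both exposures that ended at E10.25, where 9.78% and 6.5% of all genes were called lower. Their median log2 fold changes were -1.61 and -1.67, though without litter 2 at E9.25+24h 3 remained called, with 460 of all genes called. In the analysis of all pools without the block no immediate early member fell in these exposures: Jun rose at E9.25+24h and the others did not pass. With the litter as a block Ier2 was called lower at E9.25+24h (edgeR FDR 0.00102). Jun, Junb and Egr1 were called higher there, beside 40.6% of all genes called. Ier2 was also called lower without R2b of litter 4. At E10.25+24h the ERK readout median was -0.49, and 0 of 6 passed in edgeR or DESeq2, with 0 at an unadjusted p under 0.05. With litter 1 left out and the litter as a block 6 of 6 passed there, beside 4.04% of all genes. Without litter 1 and with no block 0 of 6 passed, and 0 of all genes. Without litters 1 and 3, 1 of 6 passed, with 5 of all genes called.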

How the data were processed

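Poly(A)-selected RNA of mouse otocyst epithelium was sequenced from stranded libraries, per the labels' protocols. Reads were aligned with Novoalign 2.08.03 to mm10, per the submitters' processing notes. The counting tool, its use of strand and its annotation are not given in the sources used here. The authors deposited 1 table of raw counts, whole numbers by Ensembl gene. Of 24 samples, 22 have a column and 2 columns match no sample and were not used. The 2 samples without a column, litter 4 of E9.75+12h, were not analysed here. No gene of the table totals under 108 counts, and 15522 of 15736 genes had a symbol in GENCODE M21 (GRCm38) or the gene name table.

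Each exposure was fitted alone in edgeR 4.0.16 (R 4.3.3) (filterByExpr, then TMM; dispersions by estimateDisp; glmQLFit with 2 group means; glmQLFTest). Differences of effects were contrasts in 1 fit of all 22 libraries. SEs came from the F statistic. Log2 CPM used a prior count of 2 and fitted fold changes 0.125. Code was tested on simulated counts. The pairing comes from the labels, which give both pools of a litter to the same female. Same-litter deviations correlated across genes with r from -0.27 to -0.14 in E9.75+12h, from 0.441 to 0.77 in E9.25+24h and from -0.12 to 0.398 in E10.25+24h. The spread of a member was compared with genes within 0.5 of its mean log2 CPM.

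The members and lists were chosen with earlier results of these data known. Genes named are all members, up to 4 called genes per list and exposure with the smallest FDR, and the genes of most similar profile. Counts of pools carry no molecular identifiers, and SDs and SEs are between litters. Alternatives were median-of-ratios factors, no filter, a minimum mean CPM of 1, the litter block, all libraries in 1 fit, DESeq2 1.42.0, a prior count of 0.5 for the spread, and leaving out pools or litters.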

Additional observations from a re-analysis of the deposited data

Results flagged for a closer look

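The pools of each member and group of 4 were compared by the gap of the highest or lowest pool to its neighbour, as a share of the group's range. Of 36 groups, 5 had a gap past Dixon's critical value, where chance gives about 1 in 20 for independent groups of normally spread values. The groups here are genes measured in the same libraries and are not independent, so 5 of 36 cannot be read as an excess. In con of E9.25+24h, Fos in litter 4 was 1.08 CPM (others 0.373 to 0.447 CPM), Myc in litter 4 was 20.7 CPM (others 6.12 to 8.33 CPM) and Mycn in litter 3 was 138.5 CPM (others 106 to 111 CPM). At E10.25+24h, Fos in litter 2 labelled con was 4.37 CPM (others 1.62 to 2.03 CPM), and Ier3 in litter 2 labelled R2b was 1.74 CPM (others 1.13 to 1.21 CPM). Within the con pools and within the R2b pools of E9.25+24h, litter 4 also had the highest sums of mesenchyme, endothelium, blood, hindbrain and macrophage markers, and the part of those cells was not tested.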

How the results depend on the processing

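At E9.75+12h the number of genes called was 1775 with the litter as a block, 4560 with all libraries in 1 fit and 267 to 4583 with a pool or litter left out. Members called were 2 with all libraries in 1 fit (Mycn and Jun) and 1 to 3 with a pool or litter left out. For E9.25+24h the block called 6086 genes and 5 members, and leaving out pools or litters gave 322 to 6161 genes and 1 to 5 members. At E10.25+24h, 5 genes were called without litters 1 and 3 (added after seeing the data), and leaving out pools or litters gave 0 to 614 genes and 0 to 1 members. For the differences of effects, DESeq2 called 92 (E9.25+24h minus E9.75+12h) and 74 genes (E10.25+24h minus E9.25+24h), a fit of 2 exposures alone called 1, and leaving out pools or litters gave 0 to 1899 and 0 to 84.

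Directions turned for values near 0. With a mean CPM of at least 1, Mycl at E9.25+24h was 0.0013 and the Jun difference of E9.25+24h minus E9.75+12h was -0.0043. With the block, Myc at E9.25+24h was 0.055 and the Fos difference of E10.25+24h minus E9.25+24h was -0.047. With a pool or litter left out, values ran from -0.17 to 0.21 for Ier2 and -0.24 to 0.98 for Ier3 at E9.75+12h, and from -0.29 to 0.52 for Myc and -0.048 to 0.041 for Mycl in E9.25+24h. In the latest exposure they ran from -0.050 to 0.71 for Fos, -0.017 to 0.091 for Jun and -0.11 to 0.31 for Junb. Differences of E9.25+24h minus E9.75+12h ran from -0.24 to 0.66 for Egr1, -0.078 to 0.12 for Jun, -0.35 to 0.035 for Junb, -0.50 to 0.68 for Ier3 and -0.51 to 0.32 for Myc. Differences of E10.25+24h minus E9.25+24h ran from -0.43 to 0.46 for Fos, -0.0088 to 0.17 for Ier2 and -0.41 to 0.42 for Myc. The causes were not tested, and fits that left out a pool or litter also held fewer pools. Depth limits Egr1, Fos and Ier3 most, since their lowest libraries held 10, 7 and 10 counts. Fits that left out 1 pool kept its litter's partner.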
